A study of Mus musculus with 4 samples.

Results

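Matrix metalloproteinases (MMPs), the ADAMTS enzymes and their natural inhibitors, the TIMPs, were examined in mouse colon tumours raised with 2 agents, the carcinogen azoxymethane and the colitis-inducing dextran sulfate sodium. The genes were chosen by symbol alone, as every Mmp, Adamts and Timp gene with a plain number in its name. The rule uses no measured value, but the families were picked for description with earlier results of these data known. This gave 46 of the 26214 gene symbols in the count files: 23 MMPs, 19 ADAMTS genes and 4 TIMPs. The groups were Gsk3b IEC-/- tumours (2 libraries) and Gsk3b IEC+/+ tumours (2 libraries), where IEC refers to intestinal epithelial cells and Gsk3b encodes GSK3B, a kinase that phosphorylates beta-catenin and so targets it for breakdown. Both groups received the carcinogen and the colitis agent. The labels name no Cre driver, deleted exon, strain or age, and leave unsaid whether replicates were taken from different animals, and p-values therefore cover no more than the spread between these libraries. Polyadenylated RNA of whole tumour tissue was sequenced, and each file gives a read count for every gene symbol.

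MMPs are zinc-dependent proteases that are made as inactive precursors and cleave collagens, laminins, fibronectin and many non-matrix proteins. ADAMTS enzymes are secreted relatives with thrombospondin repeats that trim proteoglycans, procollagens, von Willebrand factor and microfibril proteins. TIMPs bind the active site of these enzymes, and TIMP3 is the family member known to inhibit several ADAMTS proteases. In intestinal tumours most MMPs are products of stromal and immune cells, whereas MMP7 is made by epithelial cells and, in the mouse small intestine, by Paneth cells, where it activates alpha-defensins.

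The files held 25472503 to 26599419 counts per IEC-/- library and 27135796 to 27218515 per IEC+/+ library. Gsk3b itself had 152 and 149 CPM (read counts divided by the TMM-scaled library size) in IEC-/- and 170 and 157 CPM in IEC+/+ tumours, with an edgeR quasi-likelihood adjusted p of 0.681. Its count therefore does not check the labels, and group names below are those of the libraries as labelled. Epithelial markers were present in every library, their 10 genes summing to 6387 and 6028 CPM in IEC-/- tumours and 10784 and 9320 CPM in IEC+/+ tumours. At an adjusted p under 0.05, 1 of them, Krt20, was lower in IEC-/- by edgeR (0.763% of all genes tested were), and 7 were by DESeq2 (5.31%). Endothelial markers summed to 354 and 327 CPM in IEC-/- tumours and 290 and 284 CPM in IEC+/+ tumours, and mast cell markers to 115 and 185 CPM in IEC-/- tumours and 99.7 and 137 CPM in IEC+/+ tumours, with 0 of 10 called by edgeR in either list. In whole tissue, fewer cells of a type and less RNA per cell cannot be told apart, and this holds for each value below.

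A cluster of 10 MMP genes lies on mouse chromosome 9, from 7272514 to 7699585 (GRCm38, the assembly also called mm10), a span of 427 kb. The order along the chromosome is Mmp13, Mmp12, Mmp1b, Mmp3, Mmp1a, Mmp10, Mmp8, Mmp27, Mmp20 and Mmp7. The 100 bases upstream of the RefSeq start are shown for the 6 of these genes that exceeded 5 CPM in any library, because the members with the widest spread between libraries and the most abundant member are among them. Capitals mark TGAGTCA or its reverse complement TGACTCA, the consensus of AP-1 (Fos and Jun dimers). All 6 lie on the plus strand of GRCm38.p6. The Mmp12 window precedes the more downstream of its annotated starts, inside the gene. For genes with several windows, one with a match in these 100 bases was preferred, so the Mmp12 window was chosen for its match. No other Mmp12 window held a match.
Mmp13, chr9:7272414-7272513: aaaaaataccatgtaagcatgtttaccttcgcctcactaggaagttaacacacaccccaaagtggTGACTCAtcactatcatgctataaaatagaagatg
Mmp12, chr9:7347274-7347373: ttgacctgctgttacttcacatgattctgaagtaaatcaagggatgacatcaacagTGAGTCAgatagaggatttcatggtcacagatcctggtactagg
Mmp3, chr9:7445722-7445821: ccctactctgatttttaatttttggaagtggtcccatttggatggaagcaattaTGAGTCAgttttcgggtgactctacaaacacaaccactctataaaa
Mmp10, chr9:7502242-7502341: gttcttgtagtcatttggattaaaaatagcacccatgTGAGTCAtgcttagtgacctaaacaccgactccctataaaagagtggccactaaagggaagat
Mmp8, chr9:7558329-7558428: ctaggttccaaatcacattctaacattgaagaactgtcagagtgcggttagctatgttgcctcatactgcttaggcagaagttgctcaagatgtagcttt
Mmp7, chr9:7691990-7692089: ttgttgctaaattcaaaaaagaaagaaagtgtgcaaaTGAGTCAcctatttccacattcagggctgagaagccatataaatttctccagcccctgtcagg

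RefSeq promoter windows of 300 bases (250 before the start and 50 after it) were found for 32 of the 46 genes, the 10 cluster genes among them. These genes had 35 windows. Members are counted by gene, with a match in any of its windows, whereas the percentages are of single windows, so the units differ. TGAGTCA, searched on both strands, was present in windows of 7 of the 10 cluster genes and of 0 other members, against 5.20% of all 32851 windows. Its first base lay 35 bases upstream of the start in Mmp13, 44 in Mmp12 (from the downstream start), 46 in Mmp3, and 63 in both Mmp10 and Mmp7. The remaining cluster genes with it were Mmp1a, at 73 bases, and Mmp1b, at 93. The TATA-like string TATAAA, which overlaps none of these matches, was in windows of 9 of the 10 cluster genes and of 11 members in all, against 13.6% of all windows. Its first base lay 16 bases upstream in Mmp13, 49 in Mmp1b, 7 in Mmp3, 28 in Mmp1a, 29 in Mmp10 and 58 in Mmp20. Mmp7 had it at 123 and 26 bases. In Mmp12 it lay downstream of the start, and in Mmp8 only its reverse complement TTTATA was found. CTTTGAT, a core of the TCF/LEF consensus, was in windows of 1 member, Mmp7, against 3.73% of all windows. It was present as its reverse complement ATCAAAG, just downstream of the Mmp7 start used above and so outside the bases shown. The window of another Mmp7 start held the same site, 247 bases upstream. A match describes letters only and was not tied to any factor's binding here.

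Of the 46 genes, 39 had enough counts to be tested. Mmp1a had 0 counts in every library, which allows up to 3 counts in each. Mmp1b had 6 counts in IEC-/- replicate 2 and 0 in the other 3 libraries. These copies are close in sequence, and the sharing of reads between them was not stated. Exons of Mmp1b also share 10.8% of their bases with Mmp12 on the other strand. Whether strand was used in counting is not given, and whether the Mmp1b counts are of Mmp12 was not tested. Mmp12 had 1212 and 941 counts in the IEC-/- libraries and 328 and 863 in the IEC+/+ libraries. Adamts18, like Mmp1b, was seen in IEC-/- replicate 2 alone, with 18 counts. Adamts20, Mmp16, Mmp21 and Mmp27 had at most 16 counts in any library. These 7 genes were too low for a comparison.

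By abundance, a small set of genes dominated the families. Levels between genes were compared as CPM per kb of GENCODE exon, and Mmp7 led with group means of 514 CPM per kb in IEC-/- and 337 in IEC+/+. Next was Mmp14, the membrane-anchored collagenase that activates pro-MMP2, with 174 CPM per kb in IEC-/- and 136 in IEC+/+. Mmp10 (stromelysin-2), Mmp13 (collagenase-3) and Timp2 completed the top 5, which together held 73.6% of the summed mean level of the 46 genes. Mmp7 and Mmp14 together made up 75.6% and 70.1% of the summed MMP level per kb in the IEC-/- libraries and 54.9% and 54.6% in the IEC+/+ libraries. Timp2 and Timp3 held 91.6% and 88.0% of the TIMP level per kb in IEC-/-, and 90.0% and 84.9% in IEC+/+. The summed MMP level per kb was 7.99 and 8.46 times the summed TIMP level in IEC-/-, and 6.07 and 11.0 times in IEC+/+, so the groups overlapped in this ratio. ADAMTS transcripts were 6.59% and 5.55% of the 3 families' level in IEC-/- and 8.47% and 5.47% in IEC+/+.

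**Figure D1:**
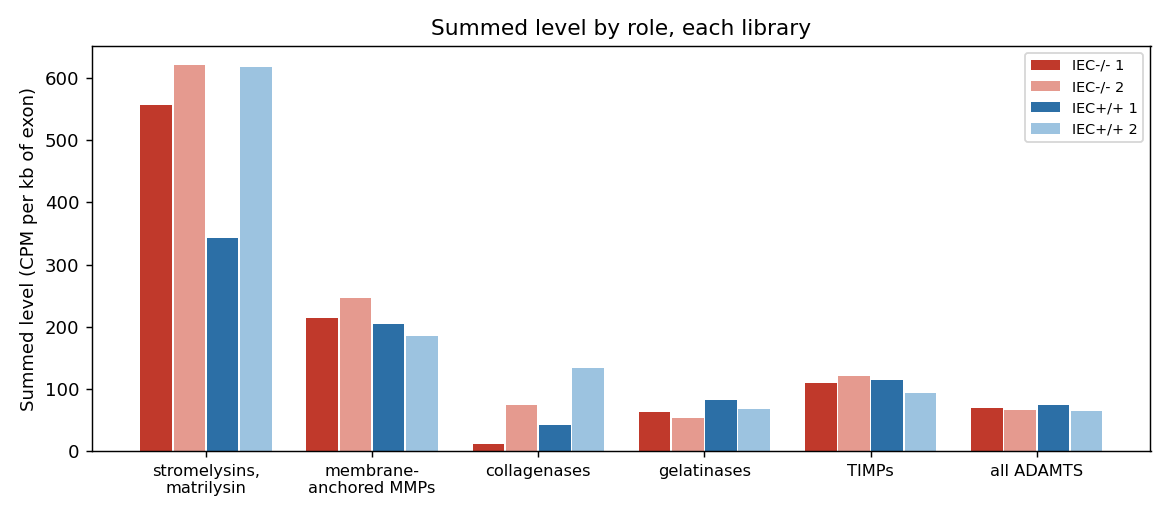
Summed level in CPM per kb of exon (vertical axis, from 0) of members by role, with a bar for each library, IEC-/- in red shades and IEC+/+ in blue shades. Stromelysins with matrilysin are the tallest group in every library, and collagenases range from 12.1 in IEC-/- replicate 1 to 135 in IEC+/+ replicate 2.

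The 39 tested genes were then compared between IEC-/- and IEC+/+ tumours. At an adjusted p under 0.05, 0 of the 39 were called by the edgeR quasi-likelihood test, against 0.884% of the 16637 genes in the test. Before adjustment, 8 had a p under 0.05, or 20.5% against 16.6% of all genes. They comprised 6 with higher levels in IEC-/- (7.50% of all genes) and 2 with lower levels (9.12%). The 8 were Adamts16, Adamts17, Timp2, Adamts9, Mmp11 and Adamts6, higher, and Adamts15 and Mmp9, lower. DESeq2 called 4 of the 39 at an adjusted p under 0.05, of which Adamts16, Adamts17 and Timp2 were higher (3.18% of all genes were) and Adamts15 was lower (5.31%). The count by limma-voom was 0. The median log2 fold change was 0.02 over the 39 genes and 0.01 over all genes tested. Groups did not overlap for 18 of the 39 (46.2%), against 48.0% of all genes. Of these, 12 were higher in IEC-/- (24.0% of all genes) and 6 were lower (24.1%). A gene that is low in 1 group can pass the count filter through the other alone, so these counts describe the tested genes and are not support for a change.

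**Figure D2:**
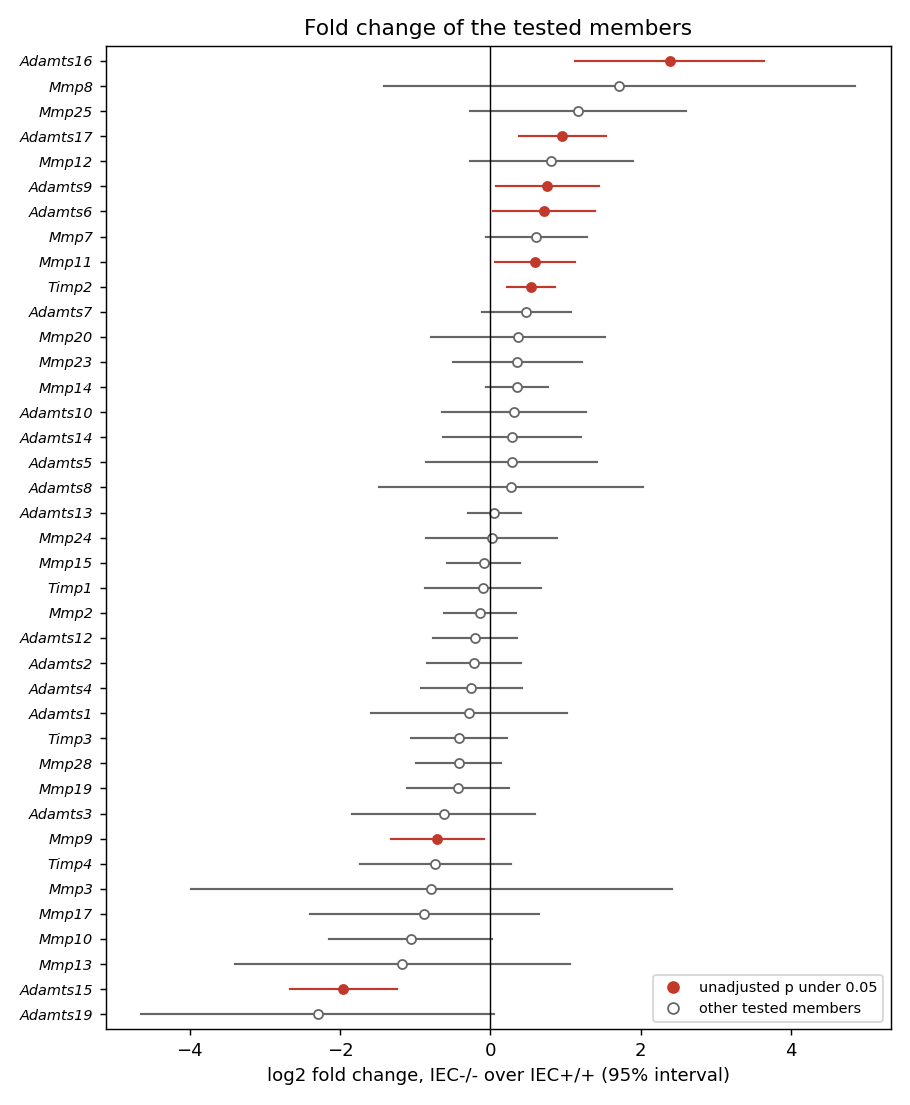
Log2 fold change of IEC-/- over IEC+/+ (horizontal axis) with its 95% interval for each of the 39 tested members, from edgeR with 2 libraries a group. The 8 filled points have an unadjusted p under 0.05, Adamts16 at 2.38 and Adamts15 at -1.95 being farthest from 0 among them.

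Among the enzymes that cut proteoglycans, Adamts15 came nearest to the threshold. Adamts15 (chromosome 9, 30899155 to 30922452), whose product cleaves aggrecan and versican, had 14.1 and 13.2 CPM in IEC-/- libraries and 67.5 and 38.6 CPM in IEC+/+ libraries. Both IEC-/- values lay below both IEC+/+ values, the IEC+/+ pair being the more spread. The means were 13.7 ± 0.642 and 53.1 ± 20.5 CPM (SD, n = 2 each), giving a log2 fold change of -1.95 (SE 0.29, edgeR adjusted p = 0.0584). As a ratio of IEC-/- over IEC+/+, the 95% interval spanned 0.157 to 0.424. The adjusted p was 0.0389 without IEC-/- replicate 1 and 0.0394 without IEC-/- replicate 2, but 0.414 and 0.161 without IEC+/+ replicates 1 and 2. Over all alternatives it ran from 5.52e-08 (DESeq2) to 0.414. The general epithelial markers given above were lower in the same libraries, and their part in the Adamts15 difference was not tested.

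Adamts9, a versicanase gene (chromosome 6), had its higher values in IEC-/-. They were 31.5 and 47.2 CPM, against 18.9 and 27.5 CPM in IEC+/+ tumours, so the lower IEC-/- library was only just above the higher IEC+/+ one (log2 fold change 0.76, SE 0.27, edgeR adjusted p = 0.264). Adamts4, an aggrecanase gene and over the 4 libraries the most abundant of this group per kb, had 34.5 CPM in each IEC-/- library and 52.3 and 29.8 CPM in IEC+/+ tumours. The IEC+/+ libraries thus enclosed the IEC-/- ones (log2 fold change -0.25, edgeR adjusted p = 0.711). Adamts1, which cleaves versican and aggrecan, had 11.9 and 21.5 CPM in IEC-/- tumours and 29.7 and 11.0 CPM in IEC+/+ tumours, with no separation of the groups. Adamts5, another aggrecanase gene, had 4.96 and 4.08 CPM in IEC-/- tumours and 2.35 and 5.07 CPM in IEC+/+ tumours. Adamts8 was the weakest tested gene of the group, at 0.468 and 0.457 CPM in IEC-/- tumours and 0.540 and 0.227 CPM in IEC+/+ tumours. Both overlapped, and their IEC+/+ replicates were more than 2-fold apart. Exons of Adamts9 share 5.29% of their bases with Gm15737 and those of Adamts8 share 13.5% with Gm29724, and the split of reads between them is not known here.

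Adamts16, Adamts17 and Adamts6 had higher means in IEC-/-. Adamts16 (chromosome 13, 70727798 to 70841845) had 3.09 and 2.13 CPM in IEC-/- tumours and 0.579 and 0.416 CPM in IEC+/+ tumours, from 86 and 56 against 15 and 11 counts. The groups were well apart but the gene is weakly expressed (log2 fold change 2.38, SE 0.50, edgeR adjusted p = 0.11). Over the alternatives that kept every library, the adjusted p ran from 0.0112 by DESeq2 to 0.136 by limma-voom. The log2 fold change ran from 2.08 to 2.63 as single libraries were left out. Adamts17 (chromosome 7, 66839699 to 67153171), mutated in humans with Weill-Marchesani-like syndrome, had 35.9 and 25.5 CPM in IEC-/- tumours and 14.4 and 17.2 CPM in IEC+/+ tumours. Every IEC-/- value was above every IEC+/+ value (log2 fold change 0.96, SE 0.23, edgeR adjusted p = 0.138). With every library kept, the adjusted p ran from 0.00896 by DESeq2 to 0.167 with the replicate block. The log2 fold change ran from 0.68 to 1.18 as single libraries were left out. Adamts6, linked to fibrillin microfibrils, had 9.75 and 13.3 CPM in IEC-/- tumours and 7.49 and 6.55 CPM in IEC+/+ tumours (log2 fold change 0.72, edgeR adjusted p = 0.283). Its relative Adamts10, also a microfibril gene, had 17.5 and 8.31 CPM in IEC-/- tumours and 10.8 and 9.91 CPM in IEC+/+ tumours, the IEC-/- libraries lying on either side. Adamts19 had 0.144 and 0.343 CPM in IEC-/- tumours and 1.97 and 0.454 CPM in IEC+/+ tumours, a difference that rested mainly on 51 counts in IEC+/+ replicate 1.

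The most abundant ADAMTS gene was Adamts13, which encodes the protease that cleaves von Willebrand factor. It had 149 and 134 CPM in IEC-/- tumours and 126 and 148 CPM in IEC+/+ tumours and was among the steadiest members (log2 fold change 0.05, SE 0.14, edgeR adjusted p = 0.897, 95% interval of the ratio 0.816 to 1.32). Vwf, the gene of its substrate, had 88.7 and 70.4 CPM in IEC-/- tumours and 59.4 and 49.0 CPM in IEC+/+ tumours (edgeR adjusted p = 0.21). The procollagen N-proteinase genes Adamts2, Adamts3 and Adamts14 had overlapping groups, Adamts14 at 2.46 to 3.89 CPM over the 4 libraries. Adamts2, the most abundant of them, had 23.3 and 20.1 CPM in IEC-/- tumours and 30.6 and 19.9 CPM in IEC+/+ tumours. Adamts3 had 2.41 and 4.12 CPM in IEC-/- tumours and 6.72 and 3.33 CPM in IEC+/+ tumours, IEC+/+ replicate 1 standing above the other 3 libraries. Of the COMP-cleaving pair, Adamts12 had 32.4 and 23.8 CPM in IEC-/- tumours and 36.7 and 28.0 CPM in IEC+/+ tumours, which overlap. Adamts7 had 19.9 and 25.2 CPM in IEC-/- tumours and 13.9 and 18.5 CPM in IEC+/+ tumours, without overlap (log2 fold change 0.48, edgeR adjusted p = 0.397).

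**Figure D3:**
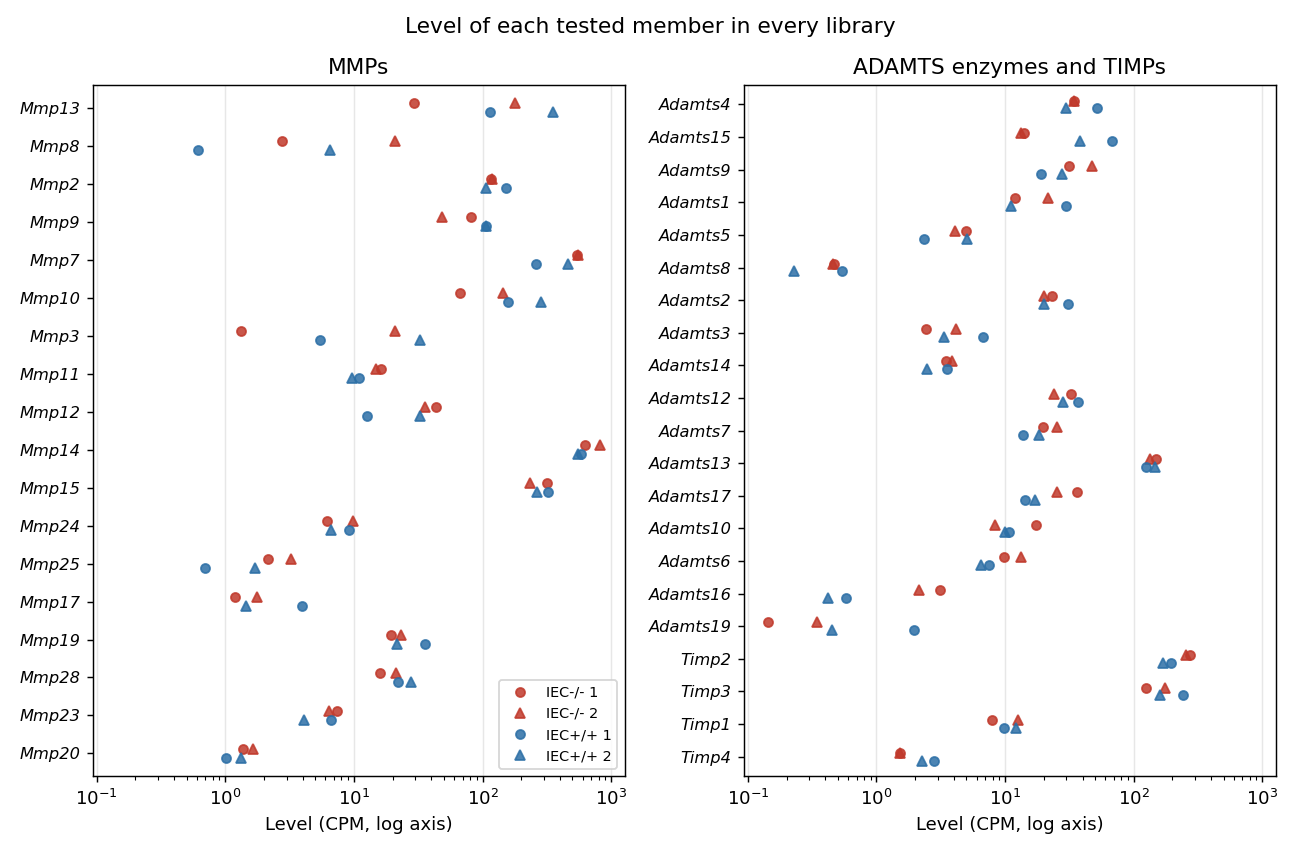
Level in CPM on a log axis of each of the 39 tested members, by role, with 1 point for each library (IEC-/- red above IEC+/+ blue, circles for replicate 1 and triangles for replicate 2). Mmp3, Mmp8 and Mmp13 spread widely within both groups, whereas the Adamts15 groups stand apart, at 13.2 to 14.1 against 38.6 to 67.5 CPM.

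Among the inhibitors, Timp2 had a higher mean in IEC-/- and the other 3 had lower means. Timp2 (chromosome 11, 118301061 to 118355411), whose protein also bridges MMP14 and pro-MMP2 during activation, had 272 and 255 CPM in IEC-/- tumours and 194 and 168 CPM in IEC+/+ tumours. The groups were separated by more than the spread within either. Means were 264 ± 12.1 and 181 ± 18.3 CPM (SD, n = 2 each), giving a log2 fold change of 0.54 (SE 0.13, edgeR adjusted p = 0.138), and DESeq2 gave an adjusted p of 0.00974. Over the alternatives that kept every library, the adjusted p ran from 0.00974 to 0.141, the highest being with RLE scaling. The log2 fold change ran from 0.44 to 0.64 as single libraries were left out. Timp3, the matrix-bound inhibitor of ADAMTS enzymes and of ADAM17, had 125 and 176 CPM in IEC-/- tumours and 242 and 162 CPM in IEC+/+ tumours, with overlap (log2 fold change -0.42, edgeR adjusted p = 0.484). Timp1, which is induced in inflamed tissue, had 7.95 and 12.7 CPM in IEC-/- tumours and 9.80 and 12.2 CPM in IEC+/+ tumours. Its libraries were interleaved (log2 fold change -0.09, edgeR adjusted p = 0.92, 95% interval of the ratio 0.548 to 1.60). Timp4, at 1.51 and 1.52 CPM in IEC-/- tumours and 2.78 and 2.27 CPM in IEC+/+ tumours, was low throughout (log2 fold change -0.73, edgeR adjusted p = 0.441).

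MMP14, TIMP2 and pro-MMP2 form an activation complex at the cell surface. Mmp14 (chromosome 14, 54431598 to 54442456) had 627 and 826 CPM in IEC-/- tumours and 584 and 553 CPM in IEC+/+ tumours. Its groups did not overlap, though IEC-/- replicate 1 was near the IEC+/+ values (log2 fold change 0.35, SE 0.16, edgeR adjusted p = 0.367). Mmp2, gelatinase A, had 116 and 118 CPM in IEC-/- tumours and 152 and 106 CPM in IEC+/+ tumours, which overlap (log2 fold change -0.14, edgeR adjusted p = 0.791). Mmp15, another membrane-anchored MMP, had 320 and 232 CPM in IEC-/- tumours and 321 and 265 CPM in IEC+/+ tumours, again overlapping. Of the less abundant membrane-anchored genes, Mmp24 had 6.15 to 9.87 CPM over the 4 libraries. Exons of Mmp24 share 14.8% of their bases with BC029722 on the other strand. Mmp17 had 1.19 and 1.75 CPM in IEC-/- tumours and 3.98 and 1.44 CPM in IEC+/+ tumours, with IEC+/+ replicate 1 the high library. Mmp25, whose product is anchored to leukocyte membranes, had 2.16 and 3.24 CPM in IEC-/- tumours and 0.695 and 1.70 CPM in IEC+/+ tumours (log2 fold change 1.17, edgeR adjusted p = 0.397).

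Mmp9, gelatinase B, a secreted product of neutrophils, macrophages and other cells, was the second gene that was lower at an unadjusted p under 0.05. It (chromosome 2, 164940326 to 164955850) had 81.3 and 48.7 CPM in IEC-/- tumours and 107 and 105 CPM in IEC+/+ tumours. The IEC+/+ libraries were nearly equal, and the IEC-/- libraries lay below them at different depths. IEC-/- replicate 2, the lowest for Mmp9, had the highest neutrophil marker sum, given below. Macrophage marker sums were higher in both IEC-/- libraries than in either IEC+/+ library. The part of these cells in the Mmp9 values was not tested. Mmp9 means were 65.0 ± 23.1 and 106 ± 0.728 CPM (SD, n = 2 each), giving a log2 fold change of -0.71 (SE 0.25, edgeR adjusted p = 0.255). Leaving out IEC-/- replicate 1 gave a log2 fold change of -1.13, while leaving out IEC-/- replicate 2 gave -0.39. Over the alternatives that kept every library, the adjusted p ran from 0.0904 (DESeq2) to 0.257 (RLE scaling).

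The cluster genes Mmp3, Mmp8 and Mmp13 differed more between replicates of a group than between group means. Mmp13 had 29.4 and 178 CPM in IEC-/- tumours and 115 and 352 CPM in IEC+/+ tumours, so that replicate 2 of each group held 6.05 and 3.07 times the level of replicate 1. Mmp3, stromelysin-1, had 1.33 and 20.9 CPM in IEC-/- tumours and 5.44 and 32.8 CPM in IEC+/+ tumours. For both genes the groups interleaved, the lowest library being IEC-/- replicate 1 and the highest IEC+/+ replicate 2. Mmp10 shared that lowest and that highest library but without overlap of the groups, at 67.0 and 144 CPM in IEC-/- tumours and 157 and 283 CPM in IEC+/+ tumours (log2 fold change -1.06, SE 0.43, edgeR adjusted p = 0.311). For Mmp13 and Mmp3 the log2 fold changes were -1.17 (SE 0.89, edgeR adjusted p = 0.58) and -0.78 (SE 1.28, adjusted p = 0.825). The Mmp3 value ran from -3.85 to 1.02 as single libraries were left out, being positive without IEC-/- replicate 1 or IEC+/+ replicate 2. Replicates more than 2-fold apart were found for 6 of the 39 members in IEC-/- (10.4% of all genes) and for 11 in IEC+/+ (8.03% of all genes).

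**Figure D4:**
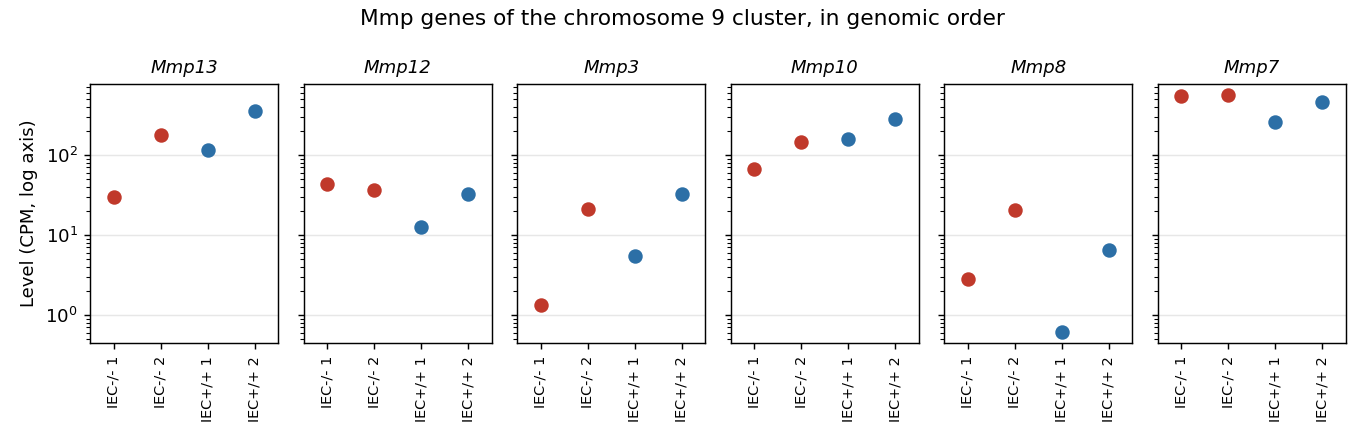
Level in CPM on a log axis of 6 Mmp genes of the chromosome 9 cluster, in genomic order from left to right, with a point for each library (IEC-/- red, IEC+/+ blue). Mmp13, Mmp3 and Mmp10 share their lowest library, IEC-/- replicate 1, and their highest, IEC+/+ replicate 2, and Mmp8 is instead highest in IEC-/- replicate 2, at 20.7 CPM.

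Mmp8, the neutrophil collagenase, was highest in the library with the most neutrophil marker RNA. It had 2.77 and 20.7 CPM in IEC-/- tumours and 0.618 and 6.51 CPM in IEC+/+ tumours, replicate 2 of both groups lying well above replicate 1 (log2 fold change 1.72, SE 1.25, edgeR adjusted p = 0.562). The value was -0.37 without IEC-/- replicate 2. The 10 neutrophil markers summed to 110 and 1251 CPM in IEC-/- tumours and 125 and 228 CPM in IEC+/+ tumours. Ltf, which epithelia can also express, held 885 CPM of that in IEC-/- replicate 2, and the other 9 summed to 99.0 and 366 CPM in IEC-/- tumours and 120 and 201 CPM in IEC+/+ tumours. The neutrophil marker Retnlg had 4.50 and 39.8 CPM in IEC-/- tumours and 1.27 and 13.5 CPM in IEC+/+ tumours, the same order of libraries as Mmp8. Mpo, by contrast, had at most 0.0772 CPM. The marker sums, with or without Ltf, did not keep the Mmp8 order. They were lowest in IEC-/- replicate 1, whereas Mmp8 was lowest in IEC+/+ replicate 1. Of the 8 tested neutrophil markers, only Ly6g was called (0.763% of all genes were lower). It fell to 12.2 and 15.2 CPM in IEC-/- tumours, against 66.4 and 62.5 CPM in IEC+/+ tumours (log2 fold change -2.23, edgeR adjusted p = 0.0322). The part of neutrophils in the Mmp8 values was not tested.

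Mmp7, matrilysin and the most abundant member per kb, had a higher mean in IEC-/- and was not called. It (chromosome 9, 7692090 to 7699585) had 544 and 553 CPM in IEC-/- tumours and 260 and 459 CPM in IEC+/+ tumours. The IEC-/- libraries were nearly equal, and IEC+/+ replicate 1 was the low one. Means were 549 ± 6.36 and 360 ± 141 CPM (SD, n = 2 each), giving a log2 fold change of 0.61 (SE 0.27, edgeR adjusted p = 0.343), with a 95% interval of the ratio from 0.958 to 2.43. The sum of the 7 Paneth cell markers was also lowest in IEC+/+ replicate 1, at 3080 and 3116 CPM in IEC-/- tumours and 1776 and 3158 CPM in IEC+/+ tumours. In that library 6 of the 7 had their lowest level, the exception being Pla2g2a, whose IEC+/+ libraries were nearly equal at 262 and 261 CPM. Lyz1, the Paneth lysozyme, had 2027 and 2047 CPM in IEC-/- tumours and 1124 and 2228 CPM in IEC+/+ tumours. The 3 alpha-defensin genes of the list, whose protein class MMP7 processes in mice, summed to 487 and 569 CPM in IEC-/- tumours and 249 and 434 CPM in IEC+/+ tumours, in the same order of libraries as Mmp7. Of the 7 markers, 0 were called by edgeR, and DESeq2 called 1, higher (3.18% of all genes). At an unadjusted p under 0.05, 2 were higher in IEC-/- (7.50% of all genes). Their part in the Mmp7 values was not tested. Exons of Mmp7 share 11.5% of their bases with AV064505.

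Mmp12, the macrophage elastase, had 43.6 and 35.9 CPM in IEC-/- tumours and 12.7 and 32.7 CPM in IEC+/+ tumours. The groups did not overlap, but IEC+/+ replicate 2 was close to IEC-/- replicate 2 (log2 fold change 0.81, SE 0.43, edgeR adjusted p = 0.431). The 10 macrophage markers summed to 1457 and 1087 CPM in IEC-/- tumours and 959 and 903 CPM in IEC+/+ tumours. Of them, 4 were higher at an unadjusted p under 0.05 (7.50% of all genes). By edgeR and limma-voom 0 were called, and by DESeq2 1 was, higher (3.18% of all genes). Lyz2, the macrophage lysozyme and the largest part of that sum, had 797 and 504 CPM in IEC-/- tumours and 396 and 349 CPM in IEC+/+ tumours. Cd14, by contrast, was lower without overlap, at 85.6 and 116 CPM in IEC-/- tumours and 122 and 211 CPM in IEC+/+ tumours (edgeR adjusted p = 0.308), and Mrc1 had a lower mean in IEC-/-. Their part in the Mmp12 values was not tested. Mmp11, stromelysin-3, a gene typically found in tumour fibroblasts, had 16.2 and 14.8 CPM in IEC-/- tumours and 11.0 and 9.61 CPM in IEC+/+ tumours. Both pairs were tight (log2 fold change 0.59, SE 0.21, edgeR adjusted p = 0.264). The 10 fibroblast markers summed to 2511 and 2160 CPM in IEC-/- tumours and 3767 and 2316 CPM in IEC+/+ tumours, with 8 of the 10 means lower in IEC-/-. Thy1, among the other 2, had 49.5 and 46.9 CPM in IEC-/- tumours and 36.4 and 30.1 CPM in IEC+/+ tumours (edgeR adjusted p = 0.17). The part of fibroblast RNA in the Mmp11 values was not tested.

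None of the 4 remaining tested MMPs had an unadjusted p under 0.05 by edgeR. Mmp28 (epilysin) had 15.9 and 21.4 CPM in IEC-/- tumours and 22.2 and 27.7 CPM in IEC+/+ tumours, just short of overlapping (log2 fold change -0.42, edgeR adjusted p = 0.436). Exons of Mmp28 share 12.3% of their bases with 1700020L24Rik on the other strand. Mmp19 had 19.5 and 23.1 CPM in IEC-/- tumours and 35.8 and 21.7 CPM in IEC+/+ tumours, which overlap. Its exons share 22.8% of their bases with Tmem198b on the other strand, and whether strand was used in counting is not given, so part of its counts may be of that gene. Mmp23 had 4.09 to 7.37 CPM, and Mmp20, the tooth enamel protease gene, 1.00 to 1.64 CPM.

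IEC+/+ replicate 1 was the highest library for 15 of the 39 tested members and the lowest for 10. IEC-/- replicate 2 was the highest for 11. The matching shares over all genes tested were not counted, so whether these counts are particular to the members is not known. In 6 of the 15, Adamts15, Adamts19, Adamts3, Adamts4, Mmp17 and Mmp19, IEC+/+ replicate 1 exceeded the next library by more than 1.5 times. For Mmp15 and Mmp9 it held only 1.004 and 1.01 times the next library. Adamts1, Adamts2, Mmp2 and Timp3 were also highest there. The sum of the 10 smooth muscle markers was highest in the same library, at 271 and 282 CPM in IEC-/- tumours and 511 and 213 CPM in IEC+/+ tumours, as was the fibroblast sum given above. Of the single markers, 8 of 10 for smooth muscle and 8 of 10 for fibroblasts were highest there, the exceptions being Smtn and Myocd, and Fbln1 and Thy1. At an unadjusted p under 0.05, 2 of the 10 smooth muscle markers were lower in IEC-/- (9.12% of all genes). By edgeR and limma-voom 0 of them were called, and by DESeq2 1 was, lower (5.31% of all genes). Myh11, smooth muscle myosin, had 45.2 and 31.3 CPM in IEC-/- tumours and 97.3 and 27.4 CPM in IEC+/+ tumours. Without IEC+/+ replicate 1, the log2 fold changes of Adamts1, Adamts2, Adamts4 and Mmp2 turned positive, to 0.59, 0.12, 0.21 and 0.14. Those of Adamts12, Mmp15 and Mmp17 also turned, to 0.0014, 0.054 and 0.027. Those of Adamts15, Adamts19, Adamts3, Mmp19, Mmp9, Timp3 and Timp4 stayed negative. The part of muscle and fibroblast RNA in these values was not tested.

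**Figure D5:**
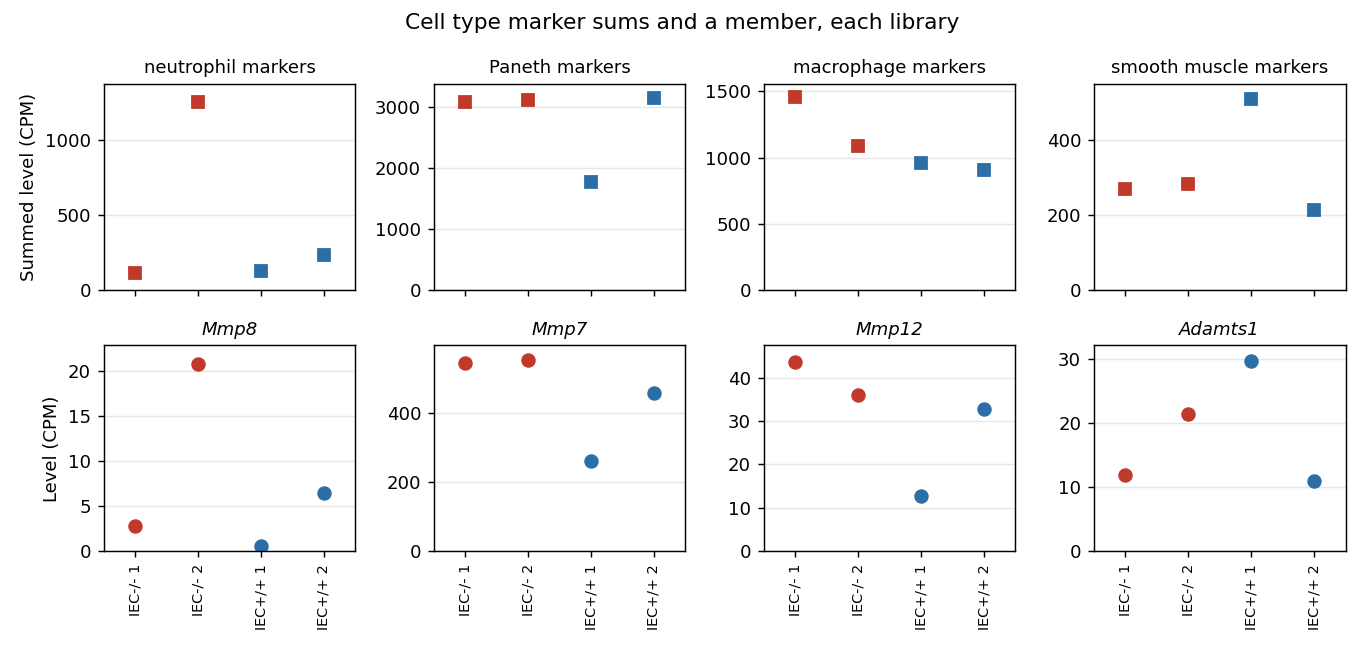
Summed level in CPM of 4 cell type marker lists (upper panels) above a member whose level is set beside it (lower panels), with a point for each library (IEC-/- red, IEC+/+ blue) and axes from 0. The pairs were chosen after the values were seen, and IEC-/- replicate 2 is highest for neutrophil markers and Mmp8, while IEC+/+ replicate 1 is lowest for Paneth markers and Mmp7.

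Other genes of matrix proteolysis were given by list. Across the 6 lists, edgeR called only the meprin genes at an adjusted p under 0.05. Of the 4 tested genes of the meprin and BMP1-tolloid list, 2 fell (0.763% of all genes were lower by this rule), by edgeR and DESeq2 but not by limma-voom. Mep1b, the beta subunit of the brush border metalloprotease meprin, fell to 4.46 and 2.78 CPM in IEC-/- tumours, against 36.9 and 22.1 CPM in IEC+/+ tumours (log2 fold change -3.02, edgeR adjusted p = 0.0461), and Mep1a, the alpha subunit, fell to 4.28 and 3.55 CPM in IEC-/- tumours, against 53.3 and 25.1 CPM in IEC+/+ tumours (log2 fold change -3.32, edgeR adjusted p = 0.0461). Neither was called without IEC+/+ replicate 1 or without IEC+/+ replicate 2, where 0 genes were called in all. The epithelial markers were also lower in the IEC-/- libraries, and their part in the meprin values was not tested. Among activators and inhibitors of proteolysis 0 of 15 were called by edgeR (0 by limma-voom and 3, all lower, by DESeq2, where 5.31% of all genes were lower), with 5 lower at an unadjusted p under 0.05 (9.12% of all genes). These included Plaur, the urokinase receptor gene, at 14.7 and 27.0 CPM in IEC-/- tumours and 44.2 and 40.7 CPM in IEC+/+ tumours (edgeR adjusted p = 0.192). Plau, urokinase itself, had 22.8 and 41.4 CPM in IEC-/- tumours and 126 and 50.6 CPM in IEC+/+ tumours (edgeR adjusted p = 0.241). Spint2, a serine protease inhibitor gene, had 673 and 746 CPM in IEC-/- tumours and 978 and 905 CPM in IEC+/+ tumours (edgeR adjusted p = 0.205). The list median was -0.07, against 0.01 over all genes tested.

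Of the ADAM sheddase list, 0 of 11 were called by edgeR or limma-voom and 1, higher, by DESeq2 (3.18% of all genes). At an unadjusted p under 0.05, 2 were higher (7.50% of all genes) and 1 was lower (9.12%). Adam8, a leukocyte ADAM, had 51.4 and 74.1 CPM in IEC-/- tumours and 35.5 and 36.9 CPM in IEC+/+ tumours (edgeR adjusted p = 0.144), while Adam15 had 33.1 and 37.1 CPM in IEC-/- tumours and 55.2 and 46.1 CPM in IEC+/+ tumours (edgeR adjusted p = 0.179). Adam12, a fibroblast and tumour ADAM, had 51.3 and 52.1 CPM in IEC-/- tumours and 44.2 and 35.3 CPM in IEC+/+ tumours (edgeR adjusted p = 0.294). Adam17 and Adam10, the main sheddases, had log2 fold changes of -0.20 and 0.04 (edgeR adjusted p = 0.472 and 0.91). Of the 6 tested ADAMTS-like genes, which lack a protease domain, 0 were called by any of the 3 tools. At an unadjusted p under 0.05, 1, Thsd4, was lower (9.12% of all genes), with 26.8 and 20.5 CPM in IEC-/- tumours and 47.9 and 31.9 CPM in IEC+/+ tumours. Adamtsl2 and Adamtsl1 were next by p, with log2 fold changes of 1.28 and 0.59 (edgeR adjusted p = 0.444 and 0.586). Among cytokine and transcription factor genes known as inducers of MMPs, 0 of 16 were called by edgeR or limma-voom and 1, lower, by DESeq2 (5.31% of all genes). Fos, an AP-1 subunit gene, was the 1 lower at an unadjusted p under 0.05 (9.12% of all genes). It had 48.3 and 64.3 CPM in IEC-/- tumours and 206 and 106 CPM in IEC+/+ tumours (log2 fold change -1.47, edgeR adjusted p = 0.129). Its partner Jun had 607 and 428 CPM in IEC-/- tumours and 502 and 470 CPM in IEC+/+ tumours. Il6 and Ets2 were next by p, with log2 fold changes of -2.02 and 0.22 (edgeR adjusted p = 0.431 and 0.462). Il1b had 21.0 and 73.0 CPM in IEC-/- tumours and 80.4 and 97.1 CPM in IEC+/+ tumours (edgeR adjusted p = 0.472), its lowest library being IEC-/- replicate 1, as for Mmp13, Mmp3 and Mmp10. That library was the lowest for 10 of the 16 inducer genes, so this is not particular to Il1b. Of the 14 tested substrate genes, 0 were called by edgeR or limma-voom and 1 was by DESeq2 (3.18% of all genes were higher and 5.31% lower). Lama5, a laminin chain gene, and Dcn, the decorin gene, had log2 fold changes of 0.26 and -0.31 (edgeR adjusted p = 0.322 and 0.455).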

How the data were processed

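Read counts per gene symbol of 4 mouse colon tumour libraries were used as deposited by the authors, without further normalization. Per the submitters' processing notes, TopHat, limma, edgeR and the mm10 build were used, with no versions or roles; the counter, annotation and use of strand are not given in the sources used here. Groups and replicate numbers came from the sample titles. Total counts were 25472503 to 27218515.

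The differential test was that of edgeR 4.0.16 under R 4.3.3, with TMM scaling (factors 0.955 to 1.05), its default expression filter (16637 genes kept), a quasi-likelihood F-test without covariates, and Benjamini-Hochberg adjustment over all genes tested, at a threshold of 0.05. CPM use the scaled library sizes. Means are given ± SD over 2 libraries, and standard errors derive from the F statistic. DESeq2 1.42.0, limma-voom 3.58.1, RLE scaling, no filter, a replicate block and leaving out each library were alternatives.

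Coordinates and promoter sequences are RefSeq's on GRCm38.p6, and exon lengths are merged exons of the GENCODE M21 basic set, matched for 46 of 46 genes. Values in every library were given for members with an adjusted or unadjusted p under 0.05, the TIMPs, the most abundant member of each role, and members whose replicates differed over 2-fold, and for list genes that were called or otherwise the 3 of smallest p. Other members and genes given with values, among them Adamts7, Adamts12, Mmp28, Vwf, Jun, Il1b, Adam10, Adam17 and single cell type markers, were chosen after their values were seen. The members and lists were chosen with earlier results of these data known. A gene of the substrate list that this rule would name is not reported here.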

Additional observations from a re-analysis of the deposited data

How the results depend on the processing

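With every library kept, 186 of 195 values of single members under RLE scaling, no filter, DESeq2, limma-voom or the replicate block kept their direction and their side of the threshold, and 2 reversed. Both were of Mmp24, at -0.01 (limma-voom) and -0.0034 (replicate block). All genes called numbered 147, against 376 without the filter, 1303 by DESeq2, 78 by limma-voom and 0 to 729 as single libraries were left out, the 0 arising without either IEC+/+ library. Called members numbered 0, against 1 without the filter (Adamts15), 4 by DESeq2 (Adamts15, Adamts16, Adamts17 and Timp2) and 0 to 2 with a library left out. These were Adamts15 and Mmp9 without IEC-/- replicate 1, and Adamts15 and Adamts17 without IEC-/- replicate 2. The cause was not tested. A lone library is then assumed to vary like the other group.

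The labels do not tie equal replicate numbers. With the replicate block 2 members were called, Adamts15 and Mmp10 (adjusted p = 0.0462 and 0.0454), and 211 genes in all, and replicate differences correlated at 0.160 between the groups over the genes tested.

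Leaving out single libraries turned the direction of 15 members at least once. Log2 fold changes then ran from -0.83 to 0.59 for Adamts1, -0.33 to 0.75 for Adamts10, -0.45 to 0.0014 for Adamts12, -0.062 to 0.17 for Adamts13, -0.50 to 0.12 for Adamts2, -0.60 to 0.21 for Adamts4, -0.17 to 0.94 for Adamts5 and -0.22 to 1.01 for Adamts8. They ran from -0.35 to 0.12 for Mmp15, -1.44 to 0.027 for Mmp17, -0.38 to 0.14 for Mmp2, -0.37 to 0.31 for Mmp24, -3.85 to 1.02 for Mmp3, -0.37 to 4.23 for Mmp8 and -0.47 to 0.19 for Timp1. With 2 libraries a group, members whose replicates spread widely had intervals too broad for a direction.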
